A study of Mus musculus with 6 samples.

Results

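Retinoic acid synthesis, binding and breakdown were followed through 4 genes, Aldh1a2, Crabp1, Cyp26a1 and Rbp4, in presomitic mesoderm (PSM), the unsegmented tissue that buds off somites. The members were all probe sets annotated to exactly 1 of these symbols. Each gene had 1 probe set, so the members were 4 of 19551 probe sets, and all 4 passed the filter on low signal that left 11731 for testing. The tissue was the anterior PSM of mouse embryos of embryonic day 8.75 on a background labelled C57BL6/6J, cut away from the posterior PSM and the somites. The control genotype was R26R AC/AC and the mutant genotype R26R AC/AC;T-Cre, so the AC allele was common to both and T-Cre was the labelled difference. T-Cre is a Cre recombinase under the promoter of T (Brachyury), a gene of the primitive streak and of mesoderm leaving it. AC is taken from knowledge of the study, not from the labels, to stand for A-CREB, a dominant-negative protein that blocks CREB transcription factors and is expressed once Cre has acted. No group carried T-Cre without the AC allele, so effects of Cre itself and of AC cannot be told apart. Each genotype had 3 arrays, each of RNA from 1 pool of 3 PSMs, and a pool shows nothing of the spread between its embryos.

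Retinoic acid is made from vitamin A and acts on cells through nuclear receptors that sit on DNA. Retinol travels in blood and tissue fluid bound to the carrier Rbp4, is oxidised to retinaldehyde, and is turned into retinoic acid by Aldh1a2, the main retinoic acid synthase of the early trunk, which is known from somites and lateral mesoderm. Crabp1 binds retinoic acid in the cytoplasm. Cyp26a1, a cytochrome P450 enzyme best known from the tail bud, oxidises retinoic acid and so clears it. Retinoic acid from the somites and FGF signals from the tail bud oppose each other along the PSM.

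The Cyp26a1 promoter is shown because it holds the paired site that retinoic acid receptors are known to bind, a direct repeat with a spacer of 5 bases (DR5), within the window searched. The window, from RefSeq on GRCm38.p6, covers 250 bases before and 50 after an annotated start (chr19:37697558-37697857, plus strand), is read 5′ to 3′ and has both half-sites in capitals, which read AGTTCA on the opposite strand.
Cyp26a1 promoter: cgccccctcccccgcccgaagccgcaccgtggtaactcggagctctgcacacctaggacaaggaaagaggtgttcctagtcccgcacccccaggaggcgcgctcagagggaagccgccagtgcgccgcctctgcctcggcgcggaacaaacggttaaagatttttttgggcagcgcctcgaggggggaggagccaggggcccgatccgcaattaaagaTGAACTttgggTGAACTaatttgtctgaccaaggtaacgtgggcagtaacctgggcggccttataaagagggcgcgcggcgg
Cyp26a1 repeat, opposite strand: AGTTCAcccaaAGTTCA
Rarb repeat, gene strand: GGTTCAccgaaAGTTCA
The repeat of Rarb, a retinoic acid receptor gene and a textbook target of retinoic acid, is printed beside that of Cyp26a1 for comparison, with half-sites in capitals. The half-site searched on both strands was AGGTCA or one of its variants, namely AGTTCA (as in Cyp26a1), GGGTCA as a further form, or GGTTCA (as in Rarb). The DR5 was any of them followed, in 1 direction after 5 bases, by the same form or another of them. DR5 matches were found in 32 of 32851 promoter windows, or 0.0974%, and single half-sites in 43.7%. The windows of Aldh1a2 and Crabp1 held no half-site. Of the 2 windows of Rbp4, 1 held a single half-site. With a spacer of 2 bases, 0.268% of all windows matched and none of the members' 5 windows did. The full CREB site TGACGTCA, present in 1.79% of windows, was found in none of the members' windows, and its core TGACG, present in 20.8%, was found in 1 window of Rbp4. These are matches of letters, not measured binding.

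Signals are linear values per probe set as scaled by the authors, and all folds were fitted on log2 of the signal plus 1. Median signal per array lay between 491 and 535. Control 1, mutant 1 and mutant 2 stood apart from the other 3 arrays in the 3′ to 5′ signal ratio of the dap spike-in control, at 19.6 to 23.8 against 10.2 to 12.2, and differences within each of these sets are given beside the members' values. The high set has 1 control pool and the other set 1 mutant pool, so each such difference rests on 1 pool on that side. Of 7 tested markers of somite and anterior PSM, 1 rose (Pax3) and 1 fell (Ripply2, log2 difference −1.56, SE 0.14), with adjusted p = 0.0314 and 0.00150 by limma. Over all tested probe sets, 0.247% were called higher and 0.443% lower. Differences were negative for 6 of the 7 markers, with a median of −0.48. Among those not called, Tbx6 had −0.76 (SE 0.18, adjusted p = 0.102), with every mutant pool below every control. Of the 8 measured, Mesp2 was under the filter. All 6 measured markers of posterior PSM and tail bud were above it, although the labels place the posterior PSM outside the sample, and T and Msgn1 were not analysed here. Fewer cells of a type and less RNA per cell cannot be told apart in pooled tissue.

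Mutant minus control, Aldh1a2 and Rbp4 had positive values and Crabp1 and Cyp26a1 negative ones, and 0 of the 4 members passed limma's test at an adjusted p under 0.05. Over all 11731 probe sets, 0.690% were called, and 13.6% had an unadjusted p under 0.05, as did Aldh1a2 (0.0216) and Rbp4 (0.0430). For 2 of the 4 members, Aldh1a2 and Rbp4, the 3 mutant values lay above the 3 control values, as they did for 9.53% of all probe sets. To be called at its own standard error (SE), the difference would have had to reach 1.83-fold for Aldh1a2, 1.74-fold for Crabp1, 3.30-fold for Cyp26a1 and 6.78-fold for Rbp4. Fitted with array quality weights, which gave control 3 a weight of 4.29 and control 1 a weight of 0.315, Aldh1a2 (0.59, adjusted p = 0.0240) and Crabp1 (−0.44, adjusted p = 0.0251) were called, in a fit that called 1196 probe sets.

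**Figure D1:**
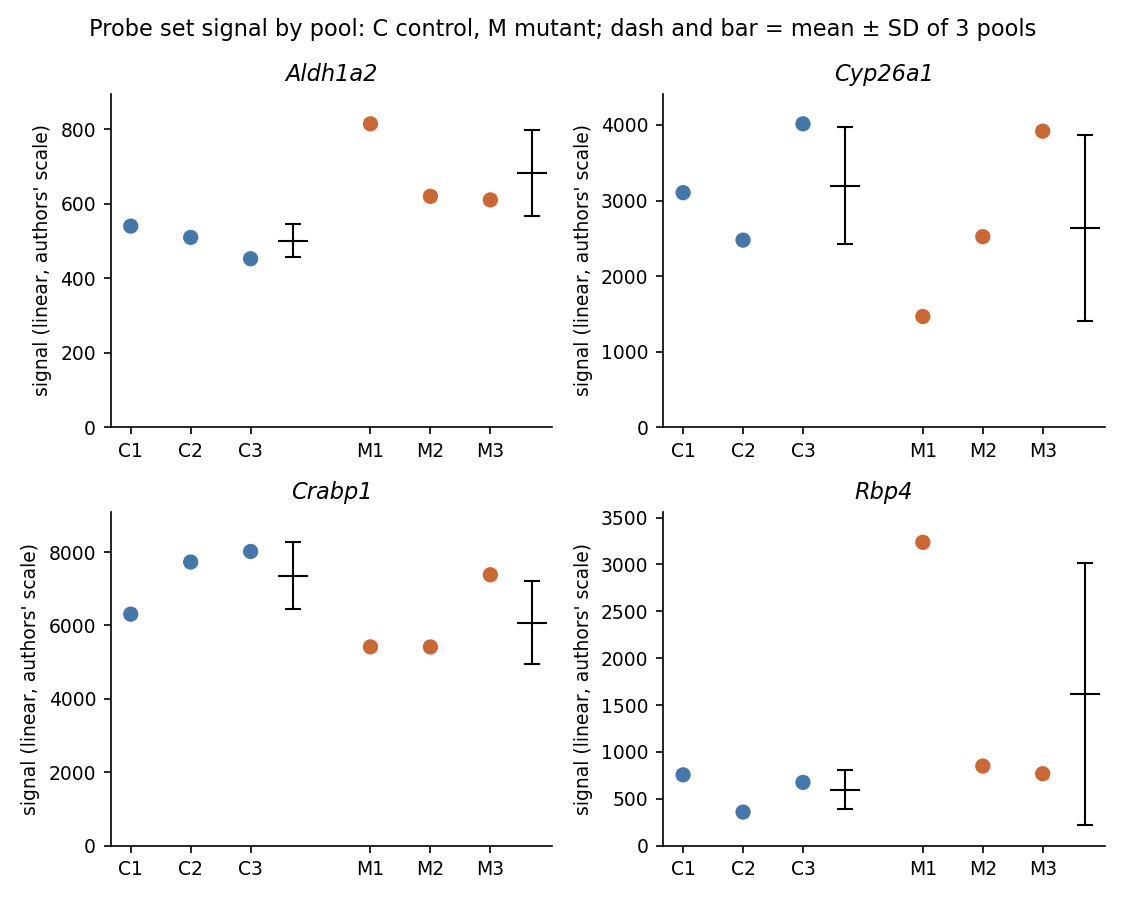
Linear probe set signal (vertical axis, from 0) of the 4 genes in each pool, with C for control and M for mutant pools, numbered as replicates; dashes with bars are the mean ± SD of 3 pools. Aldh1a2 and Rbp4 do not overlap between genotypes, while Crabp1 and Cyp26a1 do, and mutant 1 holds the highest Rbp4 value (3235) and the lowest Cyp26a1 value (1465).

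Aldh1a2, the synthase, read 540.0, 509.8 and 452 in the control pools, given in replicate order here and throughout, and 815, 620.0 and 610.5 in the mutant pools. The mutant pools were all above the controls, and mutant 1 was highest. Its mean was 501 ± 44.5 (SD, n = 3) in control and 682 ± 115 in mutant pools. The fitted difference was 0.44 (SE 0.16), or 1.35-fold (95% confidence interval 1.06 to 1.73), with adjusted p = 0.272 by limma and an exact two-sided permutation p of 0.1, the smallest that 3 against 3 pools can give. Within the arrays of high dap ratio it was 0.40, and within the others 0.35. Without mutant 1 the difference was 0.30 (adjusted p = 0.681), and without control 1 it was 0.49 (adjusted p = 0.182). Lateral mesoderm is another known site of Aldh1a2. Where 0.443% of all tested probe sets were called lower, 2 of 4 tested lateral or intermediate mesoderm markers fell. They were Prrx1 (−1.32, adjusted p = 0.00445) and Hand2 (−0.95, adjusted p = 0.0300), while Foxf1 had −0.87 (adjusted p = 0.0503). The 4 markers' summed signal was 5257 to 5526 in control and 2606 to 3296 in mutant pools, with none at 0. Their part in the Aldh1a2 values was not tested.

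Crabp1, the cytoplasmic binding protein, read 6308, 7728 and 8016 in control pools and 5417, 5415 and 7380.3 in mutant pools. Mutant 1 and mutant 2 were lower than every control, but mutant 3 lay above control 1, so the genotypes overlapped. The means were 7350.5 ± 914 (SD, n = 3) and 6071 ± 1134. The difference was −0.28 (SE 0.15, 95% interval −0.61 to 0.04, adjusted p = 0.440 by limma, exact permutation p of 0.2). It was −0.22 among arrays of high dap ratio and −0.09 among the rest. The related Crabp2, which carries retinoic acid to the nuclear receptors, read 4279, 6126 and 5526 in control and 6182, 6147 and 6570.4 in mutant pools. Crabp2 thus had higher values in every mutant pool, by 0.26 (SE 0.13, adjusted p = 0.435), where Crabp1 had a negative difference. Crabp1 is also known from the neural tube and neural crest. The listed neural crest markers Sox10 and Foxd3 were not analysed here, nor was Olig2, so the measured markers of this list do not cover the neural crest. Pax3, which rose, was counted with the somite and anterior PSM markers only. Of the 3 tested neural tube markers of the list 0 were called, with a median difference of 0.13. Another 3 were under the filter, and over all 6 measured the median was 0.36. Of those under the filter, Pax6, a neural tube factor, had 0.68 (SE 0.19) and Nes, or nestin, 0.49 (SE 0.21), both higher in every mutant pool and not called in the fit without a filter (adjusted p = 0.149 and 0.356). The summed signal of all 6 was 7314 to 9499 in control and 7657 to 10628 in mutant pools, none was at 0, and their part in the Crabp1 values was not tested.

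Cyp26a1, the breakdown enzyme, read 3104, 2476 and 4015 in control pools and 1465, 2521 and 3918 in mutant pools. Mutant 2 and mutant 3 lay inside the control range, and mutant 1 alone lay below it. Means were 3198 ± 774 (SD, n = 3) in control and 2635 ± 1230.5 in mutant pools. The spread among mutant pools, 0.71 as SD of log2 signal, exceeded that of 99.6% of tested probe sets, and among controls it was 0.35. The fitted difference was −0.36 (SE 0.31, 95% interval −1.07 to 0.34, adjusted p = 0.670 by limma, exact permutation p of 0.5). Without mutant 1 it was 0.0031 (adjusted p = 0.998), and among arrays of high dap ratio and the rest it was −0.69 and 0.31. The direction of the Cyp26a1 difference therefore rested on mutant 1.

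Posterior PSM and tail bud markers were also low in mutant 1. All 6 tested markers had their lowest value in that pool, which held the lowest value of 18.1% of all tested probe sets. Of these 6, 0 were called, all 6 had negative differences, and their median was −0.28, against −0.0018 over all probe sets. Without mutant 1 this median was −0.13, a comparison added after the data were seen. Fgf8, the FGF ligand of the tail bud, read 887, 1001 and 1212 in control and 588, 761 and 1255 in mutant pools, in the same order as Cyp26a1 within the mutant pools. Cdx4, a caudal homeobox gene, had −0.44 (SE 0.15, adjusted p = 0.227), Wnt3a −0.51 (SE 0.20, adjusted p = 0.297) and Hes7, a segmentation clock repressor, −0.25 (SE 0.13, adjusted p = 0.440). The list's summed signal was 15157 to 15949 in control pools and 11502, 13466 and 15572 in mutant 1, 2 and 3. No measured marker was at 0, and their part in the Cyp26a1 values was not tested.

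Rbp4, the retinol carrier, read 755, 358 and 675 in control pools and 3235, 849 and 767 in mutant pools. Every mutant value was above every control value, but mutant 3 exceeded control 1 only narrowly, and mutant 1 was 4.22 times mutant 3, the lowest mutant pool. The means were 596 ± 210.0 (SD, n = 3) and 1617 ± 1402. The SD of log2 signal was 0.58 among controls and 1.16 among mutant pools, above 98.0% and 99.9% of tested probe sets. The fitted difference was 1.18 (SE 0.50), or 2.26-fold (95% interval 1.03 to 4.94), with adjusted p = 0.347 by limma and an exact permutation p of 0.1. Without mutant 1 it was 0.51 (adjusted p = 0.724), and without control 2, the lowest pool, 0.84 (adjusted p = 0.655). Among arrays of high dap ratio the difference was 1.13 and among the rest 0.64.

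Rbp4 is known as a product of visceral and gut endoderm, and 10 of 11 listed endoderm markers were in the table. Of these 10, 1 rose, Epcam, an epithelial adhesion gene (0.60, SE 0.10, adjusted p = 0.0356 by limma), and 0 fell. Their median difference was 0.68, and 0.40 without mutant 1, a comparison added after the data were seen. Mutant 1 held the highest value of 7 of the 10, against 15.3% of all tested probe sets. Apoa1, an apolipoprotein of visceral endoderm, read 386, 121 and 337 in control and 3229.6, 278 and 395 in mutant pools, and Apob 572, 123 and 279 against 1889, 351 and 365. Both were lowest in control 2 and highest in mutant 1, as Rbp4 was, but they did not have the smallest p of the list. Of the 10, only 5 were lowest in control 2. Foxa1, Foxa2 and Epcam were lowest in control 3, while Epcam was highest in mutant 2 and Cldn6 in mutant 3. Sox17, a transcription factor of definitive endoderm and endothelium, had −1.06 (SE 0.20, adjusted p = 0.0507), and Cldn6, a tight junction gene, 0.48 (SE 0.16, adjusted p = 0.240). The summed signal of the list was 11791, 6475 and 8376 in control pools and 31405, 12159 and 10451 in mutant pools, with no marker at 0, and its part in the Rbp4 values was not tested. Markers of surface ectoderm, blood and neural tube also had positive median differences, so the direction was not particular to the endoderm list. The neural tube median was 0.13 over the tested markers, as given with Crabp1. Surface ectoderm markers had a median difference of 0.63, with 0 called and 3 highest in mutant 1. All 5 tested were above control in every mutant pool, as were 9.53% of all tested probe sets. Their summed signal, with 1 marker under the filter, was 12836 to 14515 in control and 18898 to 20806 in mutant pools. Blood markers had a median of 0.60, with 0 of 4 called and 3 highest in mutant 1. Only 2 of these 4 were above control in every mutant pool. The blood median was 0.91 among arrays of high dap ratio and 0.12 among the rest. The blood list, again with 1 marker under the filter, summed to 31459 to 43896 in control and 44219 to 61929 in mutant pools. None of these markers was at 0, and their part in the Rbp4 values was not tested either.

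**Figure D2:**
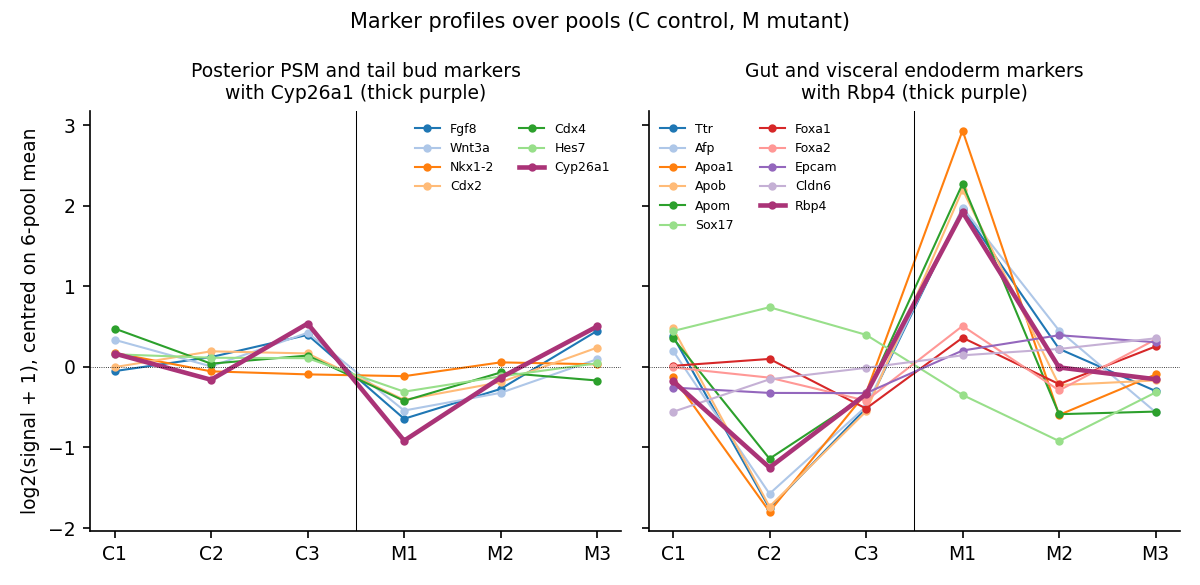
Log2 signal centred on the mean of the 6 pools (vertical axis) for 6 posterior PSM and tail bud markers with Cyp26a1 and 10 endoderm markers with Rbp4, by control (C) and mutant (M) pool; lines only join the values of 1 gene. In mutant 1 all 6 posterior markers and Cyp26a1 are at their lowest, and 7 endoderm markers and Rbp4 are at their highest.

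Over all pools, the genes nearest to each member were found by the root-mean-square (RMS) difference between centred log2 profiles, among 7114 genes other than unnamed or provisional ones. Nearest to Rbp4 were Apoe, the apolipoprotein E gene (RMS difference 0.17), Afp, or alpha-fetoprotein (0.33), and Ttr, or transthyretin (0.33), against a median of 0.97 over all genes compared. Transthyretin is the protein that binds Rbp4 in plasma. Afp and Ttr are also in the endoderm list above, so their likeness to Rbp4 is not separate from that list. Ttr read 3857, 876 and 2073 in control and 11528, 3458 and 2405 in mutant pools, Afp 2113, 617 and 1308 against 7246, 2517 and 1246, and Apoe 340.5, 167 and 241 against 1163, 408 and 329. All of them were lowest in control 2 and highest in mutant 1. They overlapped between genotypes, where Rbp4 did not, and none was called, with differences of 1.26 for Ttr (SE 0.61, adjusted p = 0.415), 1.24 for Afp (SE 0.60, adjusted p = 0.413) and 1.17 for Apoe (SE 0.44, adjusted p = 0.285).

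Cyp26a1 was nearest to Fgf8 (RMS difference 0.20), Uhrf1bp1 (0.22) and Evx1os, a transcript antisense to the posterior homeobox gene Evx1 (0.23), against a median of 0.51. Fgf8 is also in the posterior PSM and tail bud list above. Uhrf1bp1 read 709 and Evx1os 336 in mutant 1, the lowest value of each. Aldh1a2 was nearest to Mta3, a subunit of a chromatin remodelling complex (0.05), Timp2, a metalloproteinase inhibitor (0.06), and Ddah1, which breaks down methylated arginine (0.07), against a median of 0.31. Like Aldh1a2, these 3 had every mutant pool above every control and were not called (adjusted p = 0.259, 0.197 and 0.142 by limma). Crabp1 was nearest to Crebzf, a leucine zipper factor (0.03), Gba2, a glucosylceramidase (0.04), and Mtss1, an actin-binding protein (0.04), against a median of 0.27. In all 3, as in Crabp1, mutant 1 and mutant 2 were low and mutant 3 was not. All genes nearest to a member were chosen for likeness over the same 6 arrays, so a shared order of pools is no separate result. With 6 arrays and 7114 genes, some will lie close to any profile, and these likenesses are descriptions only.

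**Figure D3:**
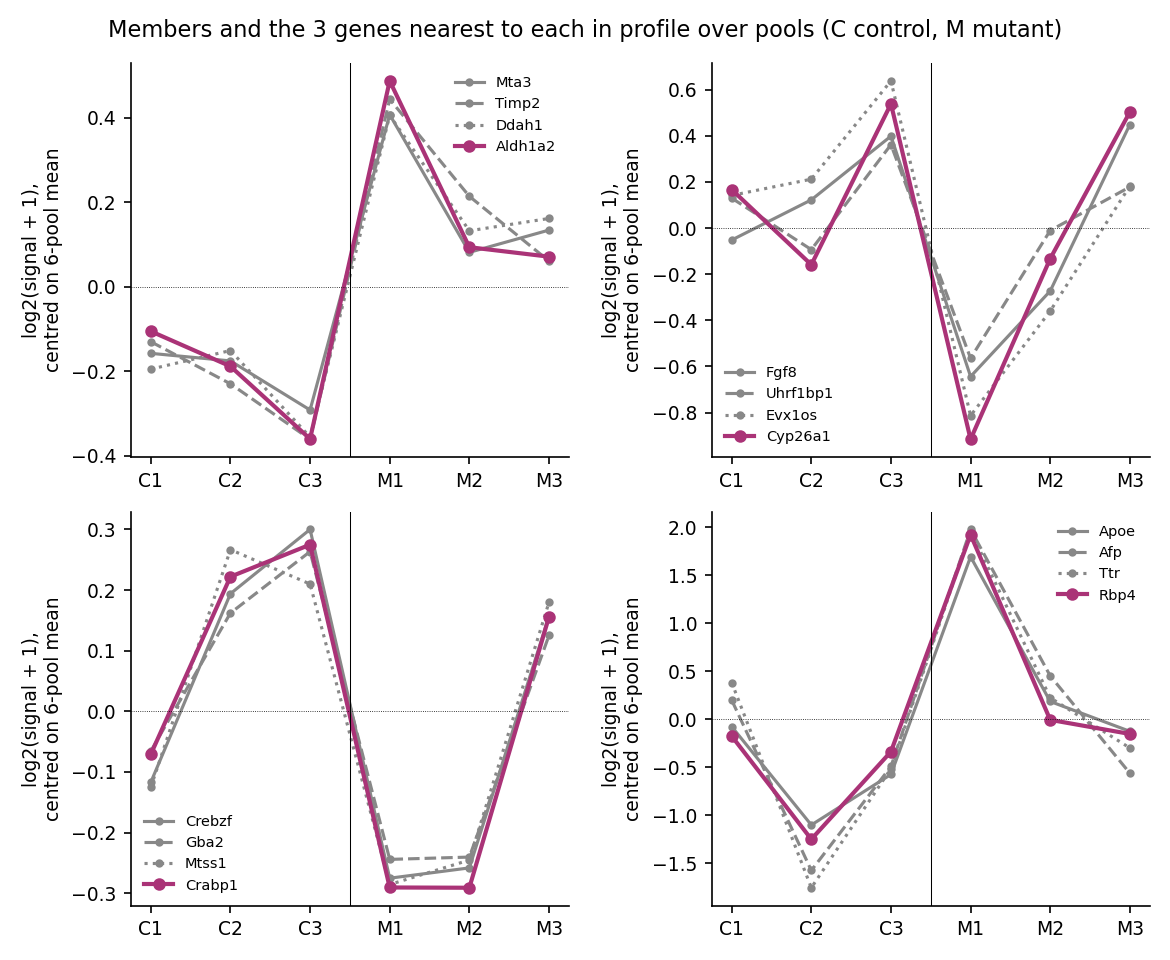
Log2 signal centred on the mean of the 6 pools (vertical axis) for each member (purple) and the 3 genes nearest to it (grey), by control (C) and mutant (M) pool; lines only join the values of 1 gene. The Rbp4 panel peaks in mutant 1 with Apoe, Afp and Ttr, and the Cyp26a1 panel has its trough there with Fgf8, Uhrf1bp1 and Evx1os.

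The other genes of retinoic acid metabolism and response were taken from a list of 44, of which 29 had a single-symbol probe set in the table and 20 were above the filter. Of these 20, 1 fell, 0 rose and 19 were not called. Their median difference was −0.05, with 8 positive and 12 negative values, against a median of −0.0018 over all probe sets, of which 0.443% were called lower. Over all 29 measured, with those under the filter, the median was 0.02. The gene that fell was Hoxd1, a homeobox gene known to respond to retinoic acid. It read 3755, 3907 and 3947 in control pools and 1632, 1817 and 2119 in mutant pools. The genotypes did not overlap, and the signal was 2.10-fold lower in mutant (95% interval 1.74 to 2.52, log2 difference −1.07, SE 0.12, adjusted p = 0.00448 by limma), with −1.12 among arrays of high dap ratio and −0.89 among the rest. The other 4 tested targets were not called. Hoxb1 had −0.25 (SE 0.12, adjusted p = 0.420), and Cdx1, a caudal homeobox gene, −0.27 (SE 0.25, adjusted p = 0.696), with −0.64 and 0.40 within the sets. Meis1 had 0.05 (SE 0.16) and Meis2 0.01 (SE 0.25). Under the filter, Tgm2 had 0.54 (SE 0.26) and Dleu7 0.61 (SE 0.27), the latter higher in every mutant pool. The median was −0.25 over the 5 tested targets and 0.01 over all 7 measured.

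On the supply side, 0 of 4 tested genes were called. Rdh10, which makes retinaldehyde from retinol, had 0.07 (SE 0.13, 95% interval −0.23 to 0.37). Dhrs3, which turns retinaldehyde back to retinol, lay under the filter, and without it had 0.18 (SE 0.25, adjusted p = 0.808). The binding proteins Crabp2 and Fabp5 were not called. The other Cyp26 enzymes, Cyp26b1 and Cyp26c1, were not analysed here. Of the receptors, Rarg had −0.03 (SE 0.18, 95% interval −0.43 to 0.38) and Rxrb −0.08 (SE 0.14). Rarb, whose repeat is printed above, was under the filter. It read 161, 127 and 146 in control and 227, 175 and 176 in mutant pools, all mutant above control, with 0.40 (SE 0.20, adjusted p = 0.428 in the fit without a filter). Of 7 tested cofactors 0 were called and 6 had negative values. The smallest p among them was that of Rere, a cofactor known to act in somite symmetry, which had −0.40 (SE 0.18, adjusted p = 0.371). With array quality weights, 3 of the 20 were called lower, in a fit that called 670 of all 11731 probe sets lower. The 3 were Hoxd1, Rere (−0.57, adjusted p = 0.0195) and Crebbp, a coactivator that binds CREB (−0.45, adjusted p = 0.0474).

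**Figure D4:**
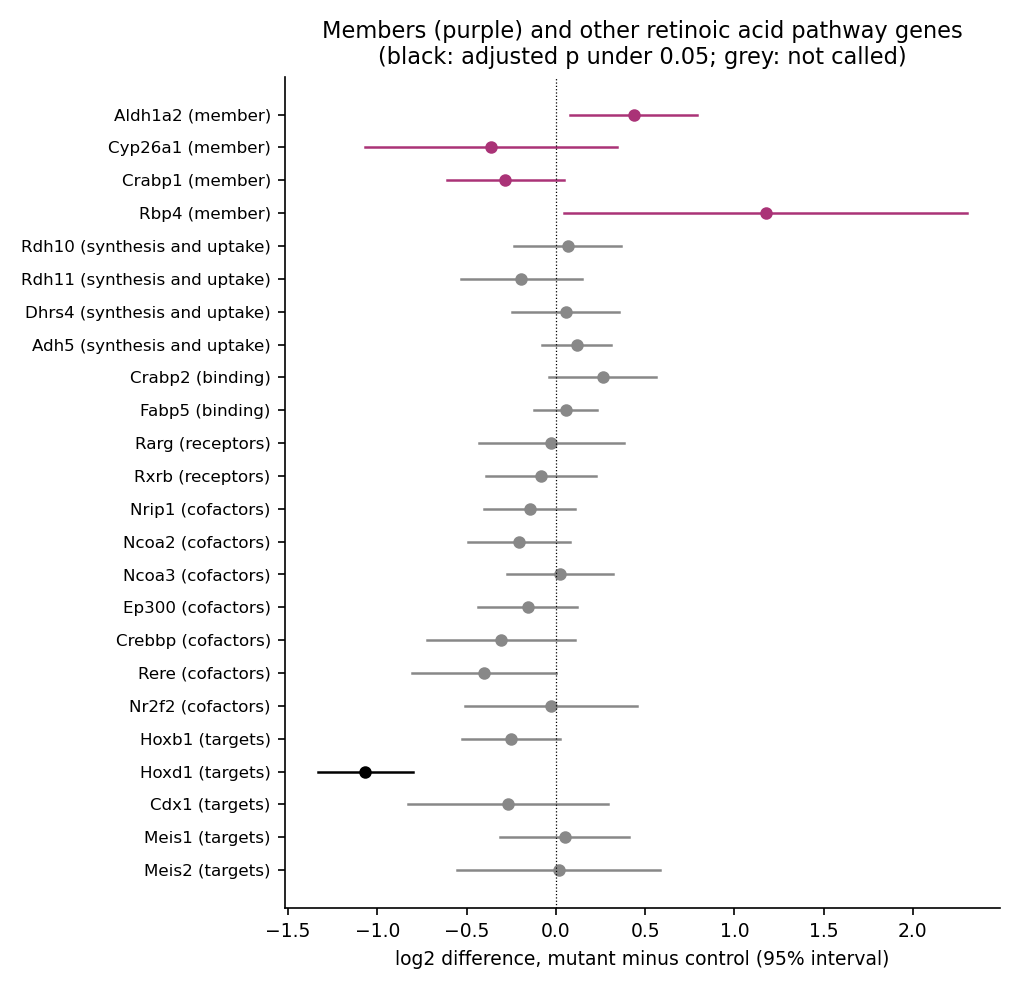
Log2 difference, mutant minus control, with its 95% interval (horizontal axis) for the 4 members in purple and the 20 other tested genes of the pathway, with the call of each in black (adjusted p under 0.05) or grey. Hoxd1 alone is called, at −1.07, and the widest interval is that of Rbp4, from 0.05 to 2.30.

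Among all probe sets, the SE was 0.15 for Crabp1 and 0.16 for Aldh1a2, near the median of 0.14 over all tested probe sets, and 0.31 for Cyp26a1 and 0.50 for Rbp4. By p, Aldh1a2 ranked 930, Rbp4 1455, Crabp1 2170 and Cyp26a1 4799 of 11731. Cyp26a1 and Rbp4 lie on chromosome 19 with 3 protein-coding genes between them in the RefSeq gene table, Myof, Cep55 and Ffar4, while Aldh1a2 and Crabp1 are both on chromosome 9. Of the 3 genes between, Cep55, a gene of the last step of cell division, was the only one tested, and it fell (−0.76, SE 0.11, adjusted p = 0.0243 by limma). It was named for its position, not by its change.

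**Figure D5:**
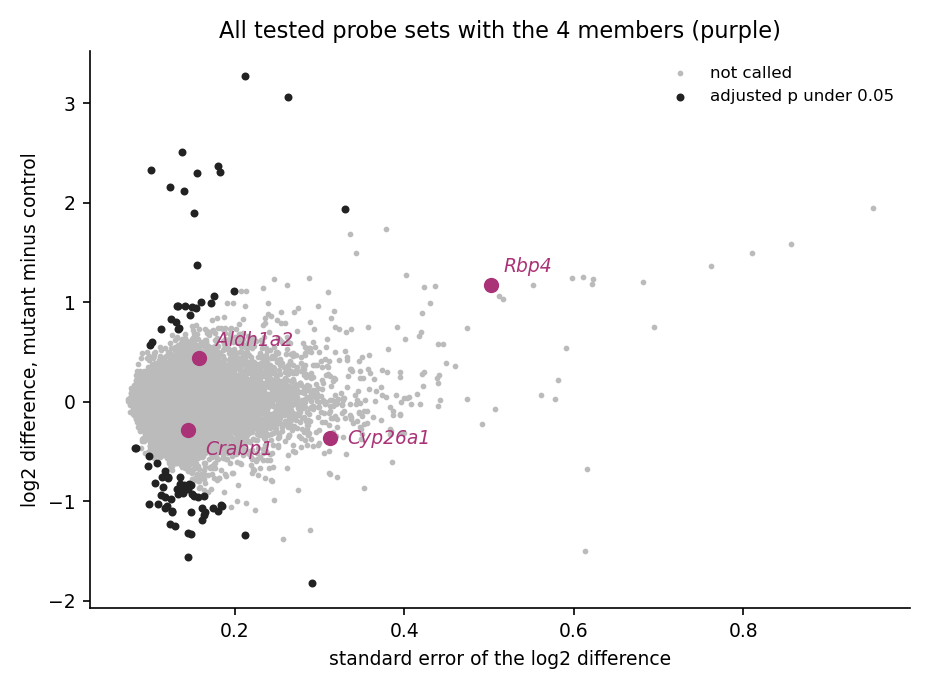
Log2 difference, mutant minus control, against its standard error for all 11731 tested probe sets (grey, or black where adjusted p was under 0.05), with the members in purple. Aldh1a2 and Crabp1 sit within the dense cloud, and Cyp26a1 and Rbp4 lie to its right at SE of 0.31 and 0.50.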

How the data were processed

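The authors deposited 1 linear, scaled intensity for each probe set on each array, made with Affymetrix Expression Console and MAS5 per the submitters' processing notes. Versions, scaling target and the rule that left these probe sets were not given in the sources used here. Control spots (55) were left out. Symbols came from the platform's annotation, which gave 17348 probe sets exactly 1 symbol. Values were analysed as log2(signal + 1). The filter removed probe sets with a mean below the 40th percentile (geometric mean signal 349). Genotypes were compared by limma (version 3.58.1, R 4.3.3) two-sided, with an intensity trend, and p was adjusted by Benjamini-Hochberg over all 11731 probe sets and called under 0.05. Each limma p sets the difference between genotypes against the spread between pools, moderated by that of the other probe sets. A listed gene was taken by its probe set of highest mean. Named were the members, the 3 nearest profiles of each, called and preset pathway genes and markers of smallest p. Some other genes of these lists are named beside them. Members, lists and the split at a dap ratio of 15 were chosen with earlier results of these data known. The fit was tested on simulated data. The number of arrays limits the precision.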

Additional observations from a re-analysis of the deposited data

How the results depend on the processing

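Aldh1a2, Crabp1 and Rbp4 kept their direction in every alternative, and Cyp26a1 did except without mutant 1 (0.0031) and within the arrays of low dap ratio (0.31). With 1 pool left out, differences were 0.30 to 0.51 for Aldh1a2, −0.43 to −0.21 for Crabp1, −0.71 to 0.0031 for Cyp26a1 and 0.51 to 1.55 for Rbp4, with 0 of them called. Array quality weights moved Cyp26a1 to −0.75 and called Aldh1a2 (0.59) and Crabp1 (−0.44), 3 other pathway genes and 1196 probe sets in all, against 81. Cyp26a1 and Rbp4 were not called in any fit, with adjusted p from 0.0865 and from 0.0548. The count of all probe sets called was 48 with a filter at the 60th percentile, where Aldh1a2 was not tested, 555 with the spike-in ratio block, 123 at the gene level, 243 at an adjusted p under 0.1 and 23 to 151 with 1 pool left out (lowest without mutant 1, highest without mutant 3). The spike-in ratio block moved all 4 members towards 0, Aldh1a2 to 0.37, Rbp4 to 0.89, Crabp1 to −0.16 and Cyp26a1 to −0.19. The causes were not tested. The other fits (no filter, no intensity trend, offsets of 16 and 64, centring on medians, quantile normalization) changed no call of a member. Replicate numbers were not said to pair the pools. Residuals of equally numbered pools correlated at 0.20, −0.45 and 0.37, which is too few values to decide whether they did. With the replicate block 120 probe sets were called and the members' differences were 0.44 for Aldh1a2, −0.28 for Crabp1, −0.36 for Cyp26a1 and 1.18 for Rbp4 (adjusted p = 0.0803), none called. In this fit the SE was 0.16 for Aldh1a2, 0.13 for Crabp1, 0.19 for Cyp26a1 and 0.28 for Rbp4.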
